A study of Homo sapiens with 12 samples.

Results

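The 53 genes described here encode the proteins that license replication origins, fire them and copy DNA at the fork. They were taken from the deposited gene table by exact match of the gene symbol and all 53 were found among its 60591 genes. RNA was sequenced from 2 established human non-small cell lung cancer lines, PC9 and H1650, which carry the same activating deletion in EGFR, the receptor that both drugs inhibit. T0 cells were given 0.1% DMSO and collected at 0 h, at the time of drugging, and treated cells were collected after 36 h with 10 µM erlotinib or 0.1 µM osimertinib. The labels give the genotype of every sample as wild type. Line and treatment gave 6 groups of 2 libraries, 12 in all. The paper names them 2 biological replicates, while the labels do not say whether these came from separate cultures. The p-values measure the spread between these libraries. The study asked whether the unequal sensitivity of the lines to EGFR inhibition goes with different drug-induced expression.

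Before a cell copies its DNA, the origin recognition complex (ORC), CDC6 and CDT1 load the ring-shaped MCM helicase onto origins, a step called licensing that geminin (GMNN) inhibits by binding CDT1. The DBF4-CDC7 kinase and firing factors such as TICRR and TOPBP1 then recruit CDC45 and the GINS complex to the ring, and the helicase so completed unwinds the fork. DNA polymerase alpha with primase starts each strand, polymerases delta and epsilon extend it, PCNA clamps the polymerases to DNA after loading by the RFC complex, and FEN1, DNA2 and LIG1 mature the lagging strand. Many of these genes are transcribed as cells enter S phase, under E2F factors, and are low in cells that have left the cycle.

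Library totals ran from 17961765 to 26346187 counts, and 3 reads, the limit that a count of 0 allows, came to 0.116 to 0.168 CPM (counts per 1000000, scaled to the normalized library size). Such limits cover counting error only. The lowest count of any of the 53 genes was 19, for POLE2, so none was near the limit. Mitochondrial genes took 4.36% to 5.36% of the counts in T0 libraries and 5.77% to 7.20% in treated libraries, which moves with treatment in both lines, and its part in the results was not tested. All 7 epithelial markers exceeded 10 CPM in every library, while the summed levels of the immune, endothelial and fibroblast markers reached at most 0.839, 5.55 and 44.9 CPM. No vehicle library of 36 h was analysed, so an effect of the drug and one of time in culture cannot be told apart. In bulk RNA, fewer cells that express a gene and less of its RNA per cell cannot be told apart either.

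In PC9 cells, every gene of the replication set fell with both drugs. After erlotinib 53 of 53 were lower at an adjusted p under 0.05 and 0 were higher, where 29.1% of the 19108 tested genes were called lower and 32.7% higher, and after osimertinib the counts were also 53 and 0, against 28.7% and 32.7%. The median log2 fold change was -2.63 with erlotinib and -2.45 with osimertinib, against 0.07 and 0.06 over all tested genes. With erlotinib 46 of the 53 fell at least 2-fold and 35 at least 4-fold, against 2485 and 1010 of the 19108 tested genes. Together the 53 genes took 0.488% of all counts in each PC9 T0 library and 0.118% to 0.124% in the 4 treated ones.

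In H1650 cells, most of the same genes fell too, but by much less. After erlotinib 39 were lower and 1 was higher, against 18.5% and 18.0% of all tested genes, and after osimertinib 43 were lower and 1 was higher, against 17.9% and 17.8%. The medians were -0.35 and -0.50, where those of all tested genes were 0.01 and 0. No gene of the set fell 2-fold with either drug, against 502 and 464 of the 19108 tested genes. Their share of all counts went from 0.442% in both T0 libraries to 0.376% and 0.396% with erlotinib and to 0.330% and 0.349% with osimertinib.

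**Figure D1:**
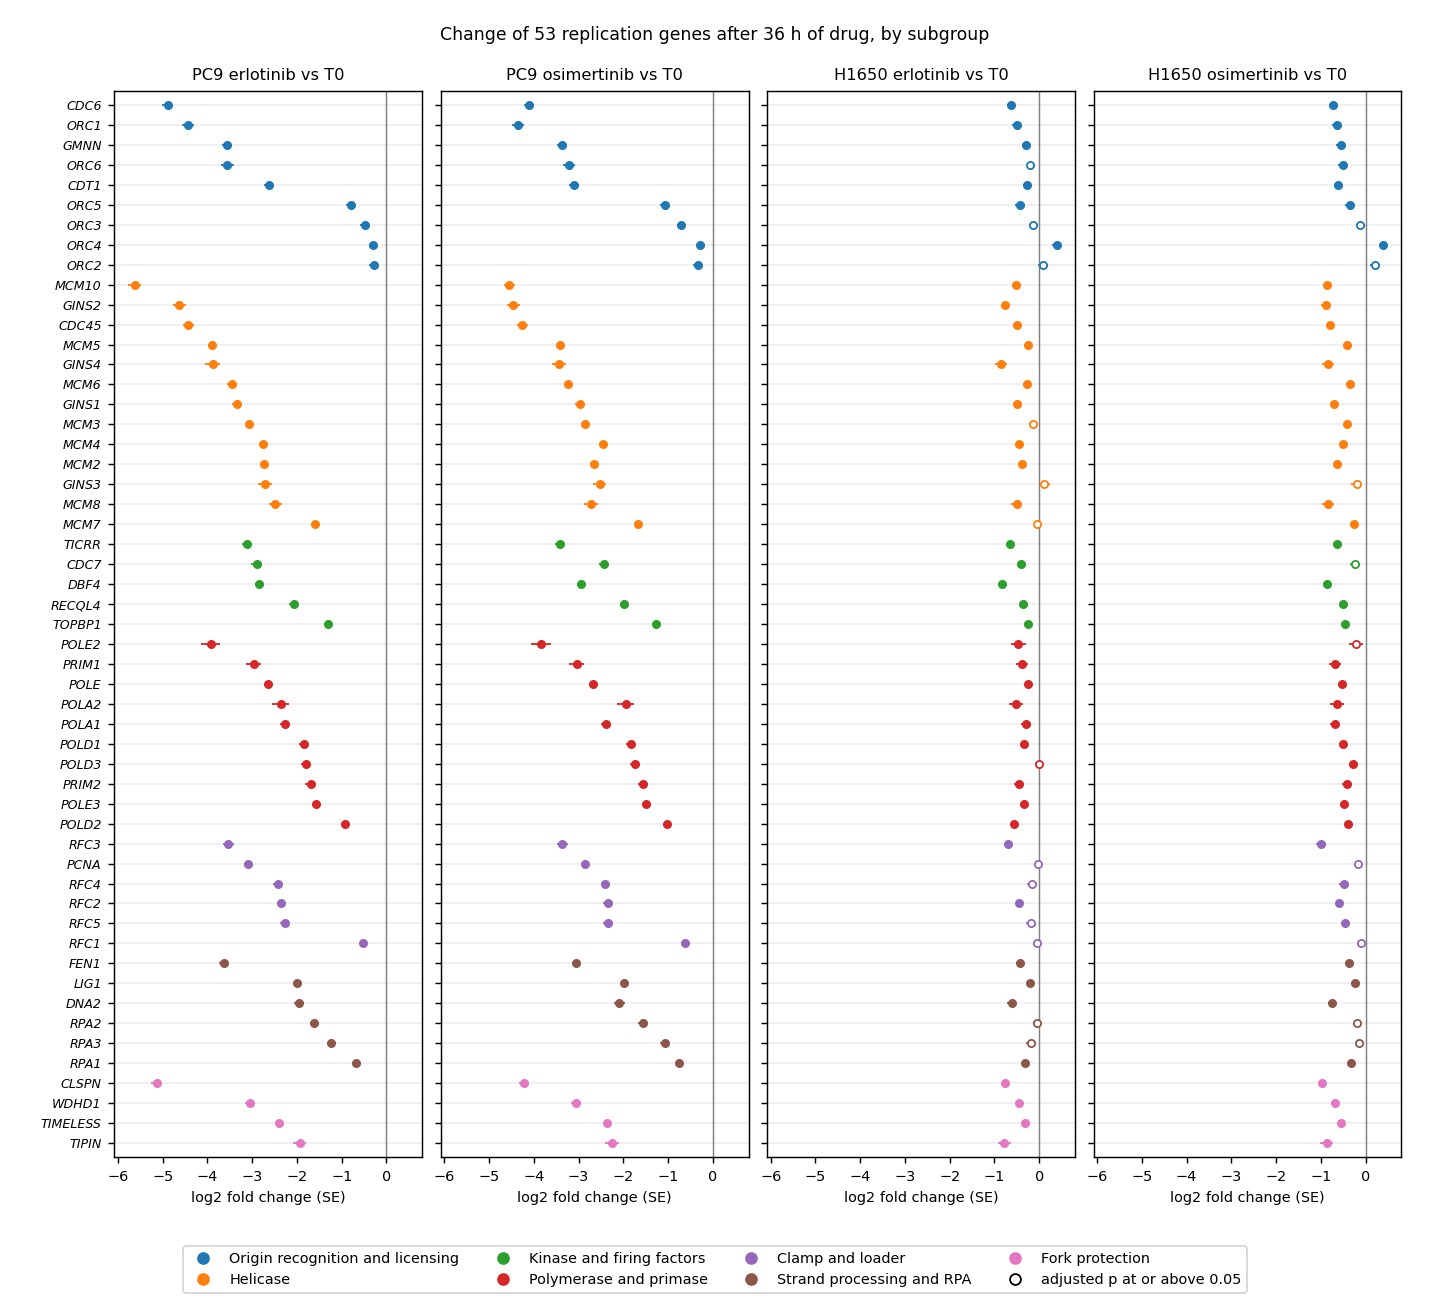
Log2 fold change against T0 with its SE (x axis) of each of the 53 genes (y axis, by subgroup and in the order of the erlotinib change in PC9) for each drug and line; open points have an adjusted p at or above 0.05. In both PC9 panels every point lies left of 0 and is filled, while in H1650 every point lies between -1 and 0.4.

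Promoter sequences of some of these genes are shown because E2F sites are what the family is known for. In RefSeq windows (GRCh38.p14) from 250 bases before to 50 bases after the start of transcription, which 45 of the 53 genes matched, both strands were searched for the E2F words TTTGGCGC, TTTGCCGC, TTTCGCGC and TTTCCCGC, for CCAAT and for the CHR words TTTGAA and TTTAAA. At least 1 E2F word stood in a window of 23 of the 45 genes (51.1%), against 855 of 15843 protein-coding genes (5.40%). CCAAT stood in 57.8% against 42.1%, and a CHR word in 11.1% against 24.7%. The stretches below are written 5′ to 3′ on the strand of the gene, and capitals mark the E2F words on either strand. In MCM2 and MCM6 a word on 1 strand overlaps a word on the other.
CDC6 (chr17:40287875-40287904, + strand): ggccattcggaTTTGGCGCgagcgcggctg
MCM2 (chr3:127598404-127598433, + strand): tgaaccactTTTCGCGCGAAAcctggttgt
MCM6 (chr2:135876514-135876603, - strand): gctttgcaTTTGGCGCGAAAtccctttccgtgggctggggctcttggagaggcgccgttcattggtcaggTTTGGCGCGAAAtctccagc
MCM7 (chr7:100101398-100101477, - strand): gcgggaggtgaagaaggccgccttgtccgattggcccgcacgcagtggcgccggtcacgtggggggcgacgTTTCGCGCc
GMNN (chr6:24775293-24775372, + strand): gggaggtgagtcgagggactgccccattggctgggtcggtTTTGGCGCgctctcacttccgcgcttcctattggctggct
CDT1 (chr16:88803709-88803788, + strand): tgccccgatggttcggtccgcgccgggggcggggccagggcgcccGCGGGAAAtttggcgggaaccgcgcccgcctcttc
POLE2 (chr14:49688201-49688230, - strand): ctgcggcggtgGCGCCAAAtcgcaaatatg
PCNA (chr20:5126642-5126721, - strand): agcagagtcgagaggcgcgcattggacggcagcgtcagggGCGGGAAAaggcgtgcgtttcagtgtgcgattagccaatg
RFC3 (chr13:33818054-33818133, + strand): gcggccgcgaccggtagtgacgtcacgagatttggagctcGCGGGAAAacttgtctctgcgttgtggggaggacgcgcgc
CLSPN (chr1:35769965-35769994, - strand): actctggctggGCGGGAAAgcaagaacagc
CDC6, MCM2, POLE2 and CLSPN are given as 30 bases around a word at the start of transcription, and the others end before it. The helicase genes held the word most often, 8 of 10 with a window, against 4 of 9 for origin genes, 4 of 9 for polymerase genes and 2 of 6 for the clamp and its loader. In 2 further stretches, from strongly lowered genes without an E2F word in their windows, capitals mark CCAAT on either strand.
MCM10 (chr10:13161433-13161512, + strand): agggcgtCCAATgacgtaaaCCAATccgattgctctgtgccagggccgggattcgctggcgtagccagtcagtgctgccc
ORC1 (chr1:52404424-52404503, - strand): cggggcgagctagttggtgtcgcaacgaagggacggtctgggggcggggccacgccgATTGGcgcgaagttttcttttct
The E2F words did not separate the genes by the size of their change. With erlotinib in PC9 the median log2 fold change was -2.73 for the 23 genes with an E2F word, over a range of -5.13 to -0.48, and -2.38 for the 22 without one, over a range of -5.62 to -0.29. In H1650 with erlotinib the E2F medians stood in the other order, -0.30 with a word and -0.40 without. For CCAAT the medians with erlotinib in PC9 were -3.02 with it and -2.42 without. Their ranges overlapped, at -5.62 to -0.29 and -3.92 to -0.30. None of these differences was tested. A match is only a run of letters, and no binding was measured.

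Among the 9 origin recognition and licensing genes, the loading factors, GMNN, ORC1 and ORC6 fell steeply in PC9 while the other ORC subunits changed less. ORC1 (chr1:52372829-52404459, GRCh38), the largest subunit and the one known to vary over the cell cycle, stood at 55.5 and 57.6 CPM in PC9 T0, at 2.42 and 2.77 with erlotinib and at 2.68 and 2.86 with osimertinib. Its level in H1650 was 30.1 and 29.7 CPM at T0, 23.6 and 19.04 with erlotinib and 20.05 and 18.4 with osimertinib. The 4 treated PC9 libraries lay far below all others. The log2 fold changes of ORC1 were -4.44 ± 0.14 (SE) with erlotinib and -4.35 ± 0.14 with osimertinib in PC9, and -0.49 ± 0.11 and -0.64 ± 0.11 in H1650, with adjusted p-values of 1.22e-20, 3.15e-20, 7.65e-04 and 3.92e-05. CDC6, the ATPase that completes the loader, went from 98.5 and 99.3 CPM in PC9 T0 to 2.91 and 3.71 with erlotinib and 5.27 and 6.22 with osimertinib. In H1650 it went from 116 and 123 CPM to 79.05 and 74.6 with erlotinib and 65.9 and 78.7 with osimertinib. Every treated PC9 library lay below every H1650 library. CDC6 changed by -4.89 ± 0.12 with erlotinib in PC9, the largest fall of the subgroup, and by -0.63 ± 0.09 in H1650.

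ORC2, ORC3 and ORC4, subunits of the ORC core, had the smallest changes of the 9 genes in PC9 with each drug. ORC4 (chr2:147930397-148021604) was at 42.1 and 43.9 CPM in PC9 T0, at 34.2 and 35.9 with erlotinib and at 33.2 and 38.01 with osimertinib. In H1650 it was at 24.1 and 26.4 CPM at T0, at 33.2 and 33.01 with erlotinib and at 32.1 and 34.3 with osimertinib. It was therefore lower in treated than in T0 libraries of PC9 and higher in those of H1650, and it was called in opposite directions in the 2 lines with both drugs. In PC9 it changed by -0.30 ± 0.09 with erlotinib and by -0.28 ± 0.09 with osimertinib (adjusted p = 0.00743 and 0.0128). The H1650 changes were 0.39 ± 0.10 and 0.39 ± 0.10 (adjusted p = 0.0021 and 0.00191). With upper quartile scaling the PC9 changes of ORC4 did not pass (adjusted p = 0.0523 with erlotinib and 0.0564 with osimertinib). The PC9 call with erlotinib was lost without T0 replicate 2 or erlotinib replicate 1 (adjusted p of 0.0598 and 0.0527), and that with osimertinib without T0 replicate 2 or osimertinib replicate 1 (adjusted p of 0.0861 and 0.198). ORC4 overlaps genes on the opposite strand, and whether strand was used in counting is not given in the sources used here. ORC2 read 38.4 and 38.99 CPM in PC9 T0, 30.4 and 32.95 with erlotinib and 31.6 and 29.8 with osimertinib. Its H1650 levels were 23.5 and 27.6 CPM at T0, 25.7 and 28.6 with erlotinib and 27.4 and 31.8 with osimertinib. Its changes in PC9, -0.29 ± 0.10 and -0.33 ± 0.10, passed the test (adjusted p = 0.0163 and 0.00689), but not without T0 replicate 2 or erlotinib replicate 1 for erlotinib (adjusted p of 0.0697 and 0.112) and not without osimertinib replicate 2 for osimertinib (0.0546). With upper quartile scaling the erlotinib change of ORC2 in PC9 did not pass either (adjusted p = 0.0986). In H1650 ORC2 did not pass, with 95% intervals of -0.13 to 0.31 and -0.0015 to 0.43. ORC3 went from 33.2 and 32.3 CPM in PC9 to 21.6 and 25.1 with erlotinib and 19.9 and 20.2 with osimertinib, and in H1650 it read 38.7 and 35.2 at T0, 32.04 and 35.1 with erlotinib and 33.7 and 34.3 with osimertinib. ORC3 thus fell in PC9, with log2 fold changes of -0.48 ± 0.10 and -0.71 ± 0.10, and did not pass in H1650 (-0.14 ± 0.10 and -0.12 ± 0.10).

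The licensing factor CDT1 and its inhibitor GMNN both fell in PC9, GMNN with the larger log2 fold changes, a difference between genes that was not tested. CDT1 (chr16:88803213-88809258) read 109 and 98.5 CPM in PC9 T0, 18.4 and 15.3 with erlotinib and 11.7 and 12.7 with osimertinib, which is -2.63 ± 0.10 and -3.10 ± 0.11 as log2 fold change. The H1650 libraries read 45.4 and 42.3 CPM, 38.96 and 33.7 with erlotinib and 29.5 and 28.1 with osimertinib. GMNN (chr6:24774931-24786099) read 75.7 and 72.4 CPM in PC9 T0, 6.63 and 5.90 with erlotinib and 6.57 and 7.90 with osimertinib, or -3.57 ± 0.11 and -3.36 ± 0.11. Its H1650 values were 50.98 and 48.04 CPM, 41.5 and 39.7 with erlotinib and 32.6 and 34.6 with osimertinib. Set against each other per deposited gene length, the ratio of CDT1 to GMNN was 1.30 and 1.22 in PC9 T0, 2.48 and 2.33 with erlotinib and 1.60 and 1.44 with osimertinib. Across the 6 H1650 libraries the same ratio lay between 0.731 and 0.842. The H1650 falls with erlotinib, -0.27 ± 0.10 for CDT1 and -0.29 ± 0.09 for GMNN (adjusted p = 0.0307 and 0.015), were lost without T0 replicate 1 (adjusted p of 0.176 and 0.117) and without erlotinib replicate 2 (0.291 and 0.0944). With osimertinib they were -0.61 ± 0.10 and -0.56 ± 0.09 (adjusted p = 1.96e-05 and 2.07e-05).

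The 13 helicase genes fell furthest as a group in PC9 with erlotinib, with a median of -3.34 and a range of -5.62 to -1.59. Of the 13, 12 fell at least 4-fold, against 1010 of the 19108 tested genes. MCM10 (chr10:13161554-13211104), which helps to activate the loaded helicase, read 60.04 and 65.8 CPM in PC9 T0, 1.03 and 1.48 with erlotinib and 2.40 and 3.03 with osimertinib. Its H1650 levels were 62.03 and 64.6 CPM at T0, 45.2 and 43.8 with erlotinib and 35.3 and 34.8 with osimertinib. At T0 the libraries of the 2 lines overlapped, and after treatment they lay more than 10-fold apart. The log2 fold changes of MCM10 were -5.62 ± 0.14 and -4.54 ± 0.13 in PC9 (adjusted p = 2.26e-22 and 2.45e-21) and -0.51 ± 0.09 and -0.85 ± 0.09 in H1650 (adjusted p = 6.48e-05 and 3.05e-08). GINS2 and CDC45, both part of the active helicase, followed at -4.63 ± 0.14 and -4.43 ± 0.13 with erlotinib in PC9.

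Subunits of the MCM ring changed unequally. MCM7 (chr7:100092728-100101940) moved least, from 414 and 418 CPM in PC9 T0 to 139.7 and 136 with erlotinib and 130.1 and 131 with osimertinib, or -1.59 ± 0.07 and -1.67 ± 0.07. In H1650 it read 184 and 173 CPM at T0, 176 and 169 with erlotinib and 143 and 153 with osimertinib. The erlotinib libraries overlapped the T0 libraries there, and the change did not pass (-0.05 ± 0.07, 95% interval -0.19 to 0.09). With osimertinib it was -0.27 ± 0.07 (adjusted p = 0.00293), a call lost without T0 replicate 1 or osimertinib replicate 1 (adjusted p of 0.0606 and 0.0698). MCM2 (chr3:127598223-127622436), whose start of transcription carries the E2F words shown above, read 182 and 177 CPM in PC9 T0, 25.8 and 28.1 with erlotinib and 27.3 and 29.8 with osimertinib. In H1650 it read 116 and 113 CPM, 92.2 and 83.1 with erlotinib and 74.1 and 74.03 with osimertinib, with no overlap between treated and T0 libraries. MCM2 changed by -2.73 ± 0.08 and -2.65 ± 0.08 in PC9 and by -0.39 ± 0.08 and -0.63 ± 0.08 in H1650. Across the rest of the ring the erlotinib change in PC9 ran from -2.77 ± 0.08 for MCM4 through -3.06 ± 0.08 for MCM3 and -3.45 ± 0.10 for MCM6, with its 2 E2F sites, to -3.90 ± 0.09 for MCM5.

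**Figure D2:**
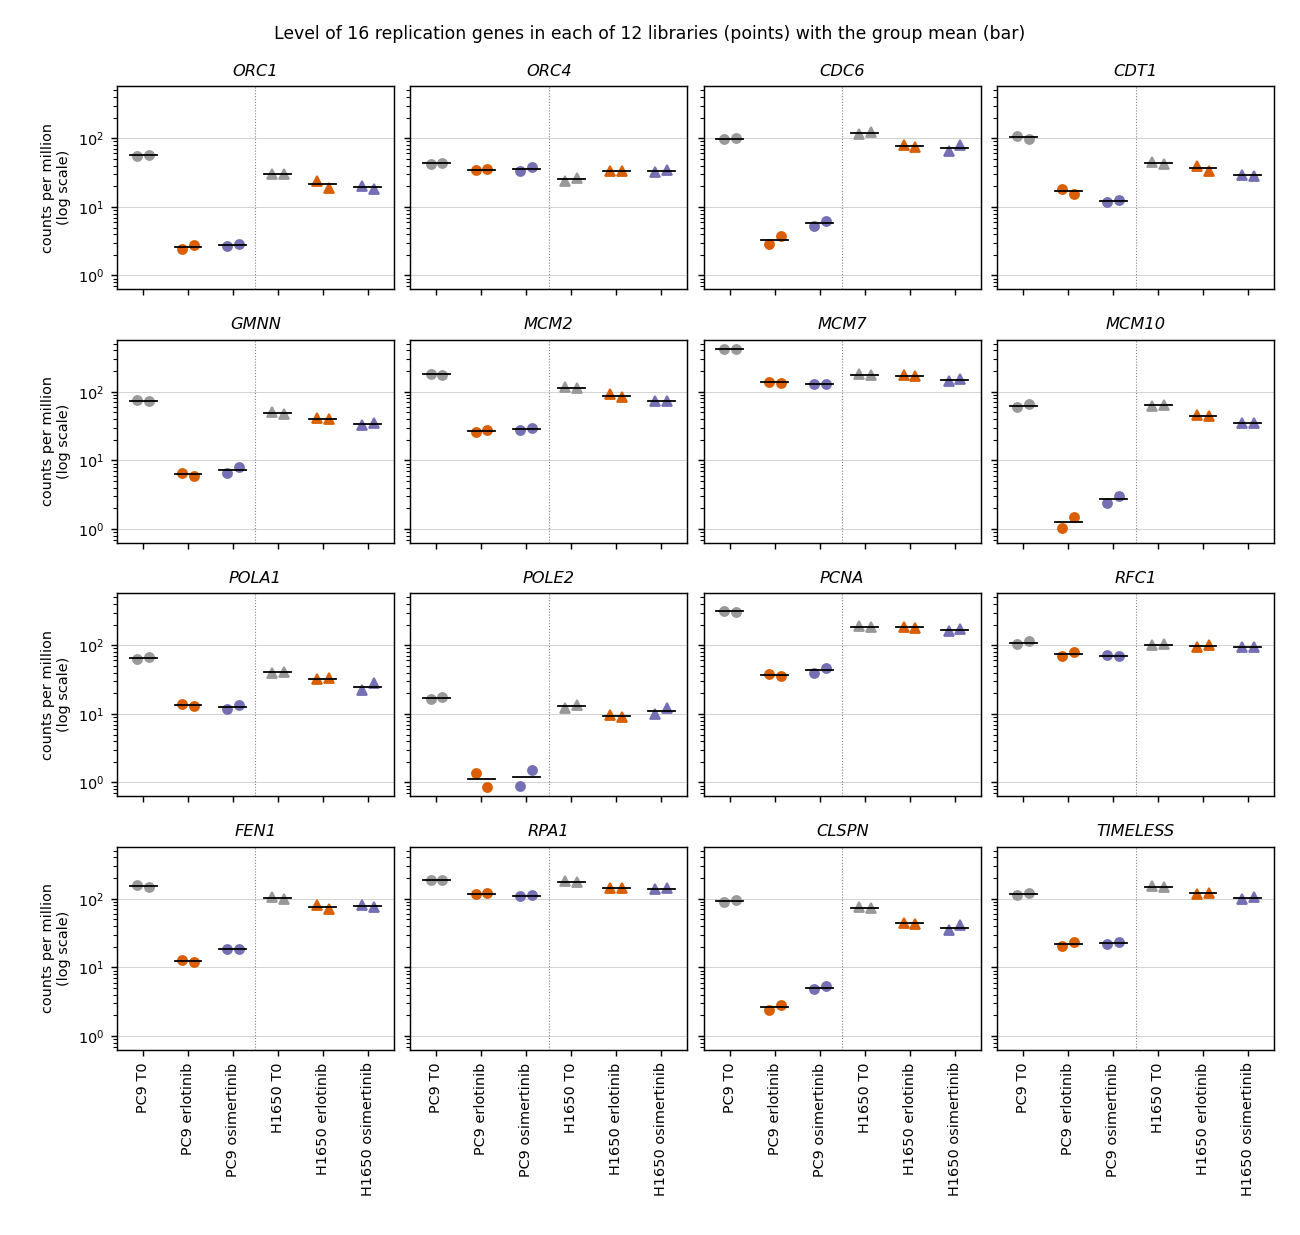
Level in CPM (log axis) of 16 of the genes in each library by group (x axis), circles for PC9 and triangles for H1650, with the mean of the 2 libraries as a bar. MCM10, CLSPN and CDC6 drop the most in treated PC9 libraries, while ORC4, RFC1 and RPA1 change least among the genes plotted.

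All 5 kinase and firing genes were lower in PC9 with each drug, where 29.1% and 28.7% of all tested genes were. Their medians were -2.84 and -2.43. TICRR (chr15:89575482-89631056), which encodes the firing factor treslin, read 50.6 and 49.95 CPM in PC9 T0, 6.09 and 5.54 with erlotinib and 4.76 and 4.60 with osimertinib. Its H1650 values were 65.5 and 60.4 CPM, 40.5 and 39.2 with erlotinib and 39.95 and 40.7 with osimertinib, all of the treated ones below T0. TICRR changed by -3.11 ± 0.11 and -3.42 ± 0.11 in PC9 and by -0.66 ± 0.09 and -0.64 ± 0.09 in H1650. TOPBP1, a scaffold for firing and for the ATR checkpoint, moved least of the 5, from 139.6 and 151 CPM to 52.7 and 65.4 with erlotinib and 61.6 and 59.7 with osimertinib in PC9 (-1.30 ± 0.09 and -1.26 ± 0.09). In H1650 it went from 99.1 and 109 CPM to 82.5 and 90.9 with erlotinib and 73.5 and 76.9 with osimertinib. The erlotinib change, -0.26 ± 0.09 (adjusted p = 0.0212), did not pass without T0 replicate 2 or erlotinib replicate 1 (adjusted p of 0.193 and 0.213). For the kinase itself, the catalytic CDC7 changed by -2.90 ± 0.12 and its activator DBF4 by -2.84 ± 0.10 with erlotinib in PC9.

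The 10 polymerase and primase genes fell less than the helicase, with medians of -2.06 and -1.89 in PC9. POLE2 (chr14:49643555-49688422), an accessory subunit of the leading strand polymerase epsilon, was the extreme, with 16.2 and 17.6 CPM in PC9 T0, 1.39 and 0.859 with erlotinib and 0.879 and 1.51 with osimertinib. Its H1650 levels were 12.4 and 13.4 CPM, 9.60 and 9.08 with erlotinib and 10.02 and 12.03 with osimertinib. It held the lowest count of the set, and its SE was the widest in each of the 4 drug comparisons. POLE2 changed by -3.92 ± 0.21 and -3.85 ± 0.22 in PC9. In H1650 the erlotinib change was -0.46 ± 0.16 (adjusted p = 0.0257), a call lost without T0 replicate 2 or either erlotinib library (adjusted p of 0.0697 to 0.132), and osimertinib did not pass (-0.22 ± 0.16, 95% interval -0.55 to 0.10). POLD2 (chr7:44114681-44124358), an accessory subunit of polymerase delta, moved least, from 232 and 224 CPM to 119 and 119 with erlotinib and 108 and 117 with osimertinib in PC9. In H1650 it went from 249.7 and 226 CPM to 160.5 and 161 with erlotinib and 183 and 181 with osimertinib. POLD2 fell in both lines, with log2 fold changes in PC9 of -0.93 ± 0.07 and -1.01 ± 0.07 and in H1650 of -0.57 ± 0.07 and -0.39 ± 0.07. POLA1 (chrX:24693919-24996986), the catalytic subunit of the priming polymerase alpha, read 62.3 and 68.3 CPM in PC9 T0, 13.7 and 13.2 with erlotinib and 11.6 and 13.4 with osimertinib. H1650 had 39.04 and 41.3 CPM, 31.9 and 33.6 with erlotinib and 22.00 and 27.8 with osimertinib. POLA1 changed by -2.28 ± 0.11 and -2.39 ± 0.11 in PC9 and by -0.30 ± 0.10 and -0.69 ± 0.11 in H1650, where the erlotinib call (adjusted p = 0.0269) was lost without T0 replicate 2 or either erlotinib library (adjusted p of 0.0503 to 0.156).

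Of the clamp and its loader, 5 of 6 genes fell at least 4-fold in PC9 with each drug and RFC1 did not. Of the 19108 tested genes, 1010 fell that far with erlotinib and 972 with osimertinib. PCNA (chr20:5114953-5126626), the sliding clamp, read 321 and 305 CPM in PC9 T0, 37.6 and 35.7 with erlotinib and 39.3 and 47.1 with osimertinib. H1650 libraries stood at 191 and 183 CPM, 187 and 179.8 with erlotinib and 162 and 170.2 with osimertinib. With erlotinib the H1650 libraries overlapped those of T0. PCNA changed by -3.10 ± 0.08 and -2.86 ± 0.08 in PC9 (adjusted p = 8.78e-22 and 3.34e-21), whereas in H1650 its changes of -0.03 ± 0.08 and -0.17 ± 0.08 did not pass, with 95% intervals of -0.18 to 0.13 and -0.33 to -0.01. PCNA has named pseudogenes, with which its reads can be shared, and so do DBF4, POLD2, RFC3, RFC5, FEN1 and RPA2 of the set. RFC3, a small subunit of the loader, went from 68.4 and 71.1 CPM in PC9 to 6.05 and 5.97 with erlotinib and 7.54 and 5.89 with osimertinib, or -3.54 ± 0.12 and -3.37 ± 0.12. It also fell in H1650, from 38.4 and 39.4 CPM to 22.7 and 25.4 with erlotinib and 18.6 and 20.4 with osimertinib, or -0.69 ± 0.10 and -0.99 ± 0.10. RFC1, the large subunit, read 104 and 114 CPM in PC9 T0, 69.8 and 81.1 with erlotinib and 71.9 and 69.6 with osimertinib, changes of -0.53 ± 0.08 and -0.63 ± 0.08. In H1650 RFC1 read 101 and 104 CPM at T0, 95.04 and 102 with erlotinib and 95.5 and 95.5 with osimertinib and did not pass with either drug (-0.06 ± 0.08 and -0.10 ± 0.08).

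Strand processing genes and RPA had the smallest median in PC9, -1.78 and -1.77. FEN1 (chr11:61792637-61797244), the flap nuclease that trims lagging strand fragments, read 158 and 149.7 CPM in PC9 T0, 12.7 and 11.99 with erlotinib and 18.5 and 18.3 with osimertinib. H1650 libraries had 107 and 98.4 CPM, 80.1 and 71.98 with erlotinib and 81.5 and 76.7 with osimertinib. FEN1 changed by -3.64 ± 0.09 and -3.06 ± 0.09 in PC9 and by -0.44 ± 0.08 and -0.38 ± 0.08 in H1650, all passing the test. It overlaps FADS2 on its own strand, so reads of the 2 genes may not be separable. RPA1, the large subunit of the single-strand binding complex, which also serves repair, went from 189 and 189 CPM to 116 and 121 with erlotinib and 111 and 112 with osimertinib in PC9 and from 179 and 175 to 143 and 143 with erlotinib and 140.1 and 141 with osimertinib in H1650. Its changes were -0.68 ± 0.07 and -0.76 ± 0.07 against -0.31 ± 0.07 and -0.33 ± 0.07. The other subunits, RPA2 and RPA3, fell by more than RPA1 in PC9 (-1.61 ± 0.10 and -1.23 ± 0.11 with erlotinib) and did not pass in H1650 with either drug, and the difference between these genes was not tested.

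All 4 fork protection genes were lower in every drug comparison. Of all tested genes, 29.1% with erlotinib and 28.7% with osimertinib were lower in PC9, and 18.5% and 17.9% in H1650. CLSPN (chr1:35720218-35769967), which encodes the checkpoint mediator claspin, read 90.4 and 95.8 CPM in PC9 T0, 2.42 and 2.85 with erlotinib and 4.76 and 5.27 with osimertinib. In H1650 it read 74.9 and 73.9 CPM, 44.3 and 43.2 with erlotinib and 34.6 and 40.98 with osimertinib. CLSPN changed by -5.13 ± 0.12 and -4.22 ± 0.12 in PC9 and by -0.77 ± 0.09 and -0.98 ± 0.09 in H1650. TIMELESS, a scaffold that travels with the fork, went from 113 and 119.6 CPM to 20.7 and 23.2 with erlotinib and 22.1 and 23.5 with osimertinib in PC9 and from 151 and 148 to 118 and 122 with erlotinib and 98.1 and 108 with osimertinib in H1650. Its changes were -2.40 ± 0.09, -2.35 ± 0.09, -0.32 ± 0.08 and -0.54 ± 0.08 in that order.

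Set side by side, the medians in PC9 with erlotinib ran from the helicase (-3.34) through the kinase and firing factors (-2.84), fork protection (-2.73), origin genes (-2.63), clamp and loader (-2.39) and polymerases (-2.06) to strand processing and RPA (-1.78). With osimertinib the origin genes (-3.10) and the helicase (-2.98) had the lowest medians and strand processing and RPA (-1.77) again the highest. In H1650 with erlotinib, fork protection had the lowest median (-0.61) and the clamp and loader the highest (-0.18), and 2 of 6 clamp and loader genes and 10 of 13 helicase genes were lower, where 18.5% of all tested genes were. With osimertinib in H1650 12 of 13 helicase genes, 9 of 10 polymerase genes, 6 of 9 origin genes and 4 of 6 clamp and loader genes were lower, against 17.9% of all tested genes. The ranges of the subgroups overlapped throughout: in PC9 with erlotinib the origin genes alone spanned -4.89 to -0.29. These medians and counts are a description of few genes each and were not tested against one another.

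Levels can be compared between genes only per length, here as CPM per kilobase of the gene length given in the deposited table. At PC9 T0, MCM7 was the highest subunit of the MCM ring at 94.4 and 95.3 and MCM5 the lowest at 25.4 and 24.3 CPM per kilobase, a ratio of 3.72 and 3.92. With erlotinib the same 2 subunits stood at 31.8 and 31.04 and at 1.71 and 1.62, a ratio of 18.6 and 19.1, and with osimertinib the ratio was 12.8 in both libraries. In H1650 the highest ring subunit was MCM3 in every library, and the ratio to the lowest stayed between 1.94 and 2.50. By this measure the ring subunits, which assemble in equal numbers, were less even in treated PC9 libraries than in any other. The length is that of the gene, not of the transcripts expressed, so these ratios are not ratios of transcript numbers.

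ORC1 was the highest ORC subunit per length at PC9 T0, with 17.8 and 18.5 CPM per kilobase, and fell to 0.775 and 0.888 with erlotinib and 0.859 and 0.916 with osimertinib. ORC4, the lowest at T0 with 4.73 and 4.93, was then above ORC1 at 3.84 and 4.02 with erlotinib and 3.72 and 4.26 with osimertinib, so the order of the 2 subunits turned. ORC6 went the same way as ORC1 in PC9, from 9.70 and 8.89 to 0.873 and 0.716 with erlotinib and 1.15 and 0.833 with osimertinib, whereas in H1650 it was the highest subunit in all 6 libraries. In the GINS complex, the summed level of the 4 subunits went from 45.9 and 45.7 CPM per kilobase at PC9 T0 to 3.38 and 3.47 with erlotinib and 4.11 and 4.41 with osimertinib, and from 43.3 and 42.8 to 29.3 and 30.8 and to 25.9 and 26.6 in H1650. In the loader, RFC1 was the lowest subunit at PC9 T0 and the highest in each treated PC9 library.

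Whether the lines differed in their response was tested directly, as the log2 change in H1650 minus that in PC9 with the same drug. With erlotinib 52 of 53 genes had a higher value and 0 a lower one, against 21.1% and 19.8% of all tested genes, and with osimertinib 53 and 0, against 21.5% and 20.5%. The median difference was 2.26 and 1.95, where all tested genes had -0.03 and -0.03. The exception with erlotinib was ORC5, at 0.37 ± 0.16 (adjusted p = 0.057, 95% interval 0.05 to 0.69). MCM10 had the largest erlotinib difference (5.12 ± 0.18), followed by CLSPN (4.37 ± 0.16) and CDC6 (4.25 ± 0.15). For osimertinib the order was ORC1 (3.72 ± 0.19), MCM10 (3.69 ± 0.17) and POLE2 (3.62 ± 0.28). The smallest erlotinib differences were those of ORC3 (0.35 ± 0.14), POLD2 (0.37 ± 0.10) and RPA1 (0.37 ± 0.10), and the smallest osimertinib differences those of RPA1 (0.43 ± 0.10), RFC1 (0.53 ± 0.11) and ORC2 (0.55 ± 0.15). With all libraries kept, ORC3 with erlotinib did not pass with DESeq2 (adjusted p = 0.109), RLE scaling (0.0502) or upper quartile scaling (0.116). Nor did it pass with a filter of at least 1 count (0.0556). The call for ORC3 with erlotinib (adjusted p = 0.0468) was lost when any of 7 libraries was left out, PC9 T0 replicate 1 or 2, PC9 erlotinib replicate 1, PC9 osimertinib replicate 1 or 2, H1650 T0 replicate 2 or H1650 erlotinib replicate 2, with values of 0.25 to 0.37 and adjusted p of 0.0525 to 0.222. That for ORC2 with erlotinib (0.38 ± 0.15, adjusted p = 0.0422) was lost without any of 5, PC9 T0 replicate 1 or 2, PC9 erlotinib replicate 1, H1650 T0 replicate 1 or H1650 erlotinib replicate 2, with adjusted p of 0.0756 to 0.191.

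Across the 53 genes, those that fell more in PC9 tended to fall more in H1650. Pearson's r between the lines was 0.521 with erlotinib and 0.684 with osimertinib, and Spearman's rho was 0.477 and 0.618. The values of a line share its T0 libraries and its sequencing depth, so r and rho are descriptions over genes, which are not independent replicates. In each drug 52 of the 53 changes were smaller in size in H1650, the exception being ORC4, and 49 and 51 had the same sign in both lines.

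**Figure D3:**
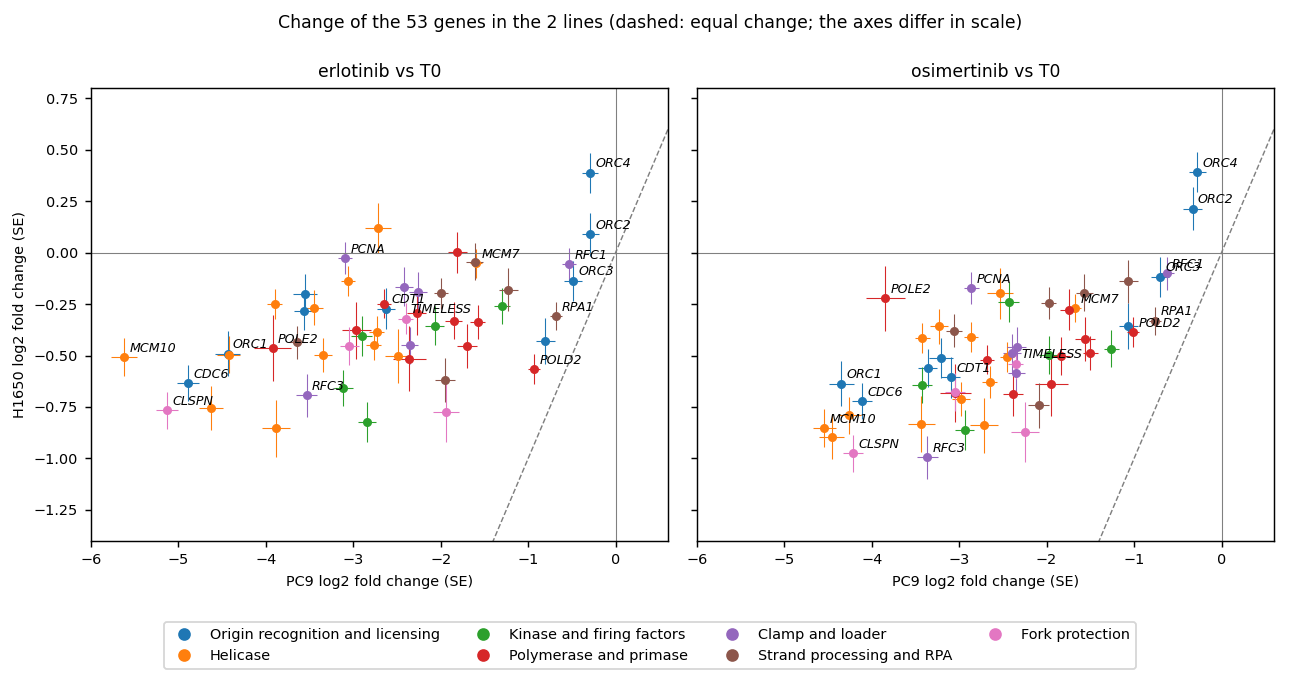
Log2 fold change in H1650 (y axis) against PC9 (x axis), each with its SE, for the 53 genes coloured by subgroup; the dashed line marks equal change and the axes differ in scale. All points with a fall in both lines lie above the dashed line, from ORC3 and RPA1 near it to MCM10 far from it.

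The 2 drugs, given at different doses, differed little in these genes. In PC9, osimertinib left 8 genes higher than erlotinib and 1 lower, against 10.1% and 6.41% of all tested genes. The 8 were CDC6, MCM4, MCM5, MCM10, GINS1, CDC7, FEN1 and CLSPN, and the differences were 1.08 ± 0.22 for MCM10 (adjusted p = 8.91e-04), 0.92 ± 0.17 for CLSPN (adjusted p = 2.49e-04), 0.78 ± 0.17 for CDC6 and 0.58 ± 0.10 for FEN1. The changes from T0 given above share their T0 libraries between the drugs, and this contrast leaves those out. The gene that was lower was CDT1, at -0.47 ± 0.12 (adjusted p = 0.00574), which was lost without erlotinib replicate 1 or osimertinib replicate 1 (adjusted p of 0.117 and 0.0863). For the 44 genes that did not pass, the 95% intervals of the difference lay between -0.66 and 0.87, so each excluded a 2-fold difference between the drugs at these doses.

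In H1650, osimertinib left 8 genes lower than erlotinib and 0 higher, against 3.73% and 5.02% of all tested genes. They were ORC6, CDT1, MCM3, MCM10, CDC45, POLA1, POLE and RFC4, and the sizes were small, -0.39 ± 0.11 for POLA1 (adjusted p = 0.0192) and -0.34 ± 0.09 for MCM10 (adjusted p = 0.0198). The call for MCM10 was lost without any 1 of the 4 treated H1650 libraries (adjusted p of 0.0769 to 0.121), that for POLA1 without erlotinib replicate 2 or osimertinib replicate 1 (0.145 and 0.409), and that for CDT1, -0.33 ± 0.10, without erlotinib replicate 1 or either osimertinib library (0.126 to 0.352). The count of 8 itself was 1 without erlotinib replicate 1 or 2, 0 without osimertinib replicate 1 and 3 without osimertinib replicate 2, and it was 5 with DESeq2 and 0 at an adjusted p under 0.01. Of genes with a higher value, 1 had an unadjusted p under 0.05 in edgeR and 0 passed with DESeq2. With the replicate number as a block, 17 genes were lower and 1 was higher. For the 45 genes that did not pass, the intervals lay between -0.62 and 0.58.

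MCM10 was therefore higher with osimertinib than with erlotinib in PC9 and lower in H1650. The difference between the lines in this drug-to-drug difference, a comparison added after the data were seen, was called for 8 genes, all lower in H1650, with 0 higher, against 3.40% and 1.81% of all tested genes. Among higher values, 2 had an unadjusted p under 0.05 in edgeR and 0 passed with DESeq2. They were -1.42 ± 0.24 for MCM10, -1.13 ± 0.19 for CLSPN, -0.86 ± 0.19 for CDC6, -0.64 ± 0.12 for MCM5, -0.58 ± 0.15 for GINS1, -0.53 ± 0.13 for FEN1, -0.48 ± 0.11 for MCM3 and -0.37 ± 0.11 for MCM4. Of these, CDC6 (adjusted p = 0.00472) was lost without PC9 erlotinib replicate 1 or PC9 osimertinib replicate 2 (0.0512 and 0.0517), and FEN1 (adjusted p = 0.0134) without PC9 erlotinib replicate 2, PC9 osimertinib replicate 1, H1650 erlotinib replicate 1 or H1650 osimertinib replicate 2 (0.0599 to 0.0693). The count was 5 without PC9 erlotinib replicate 1 or 2 or without H1650 osimertinib replicate 2.

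**Figure D4:**
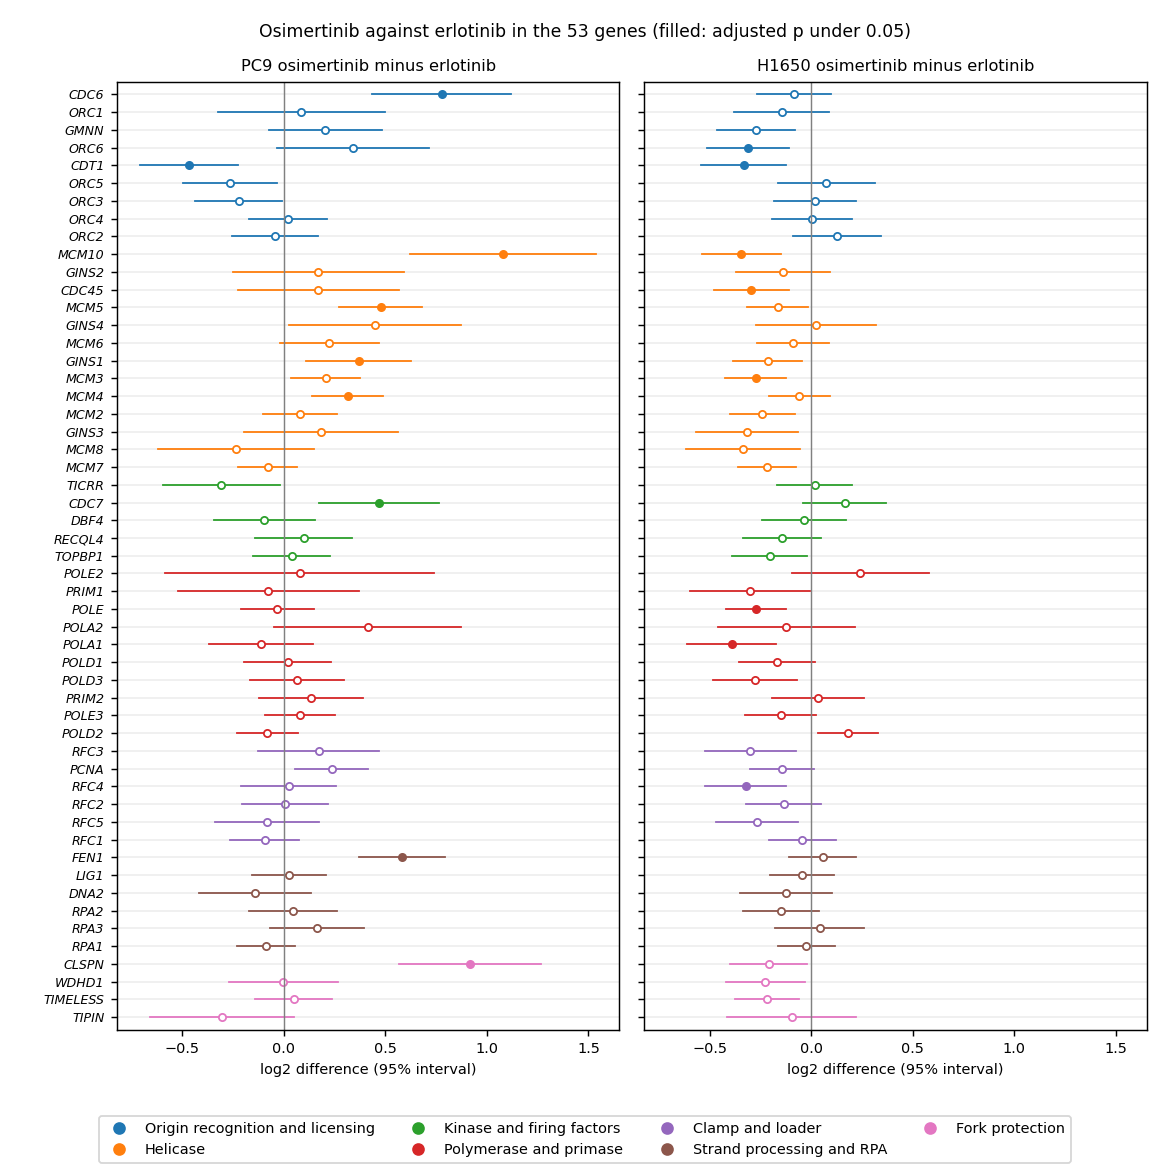
Log2 difference between osimertinib and erlotinib with its 95% interval (x axis) for each of the 53 genes (y axis) in PC9 and H1650; filled points have an adjusted p under 0.05. In PC9 the filled points lie right of 0 except CDT1, and in H1650 the 8 filled points lie left of 0.

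At T0 these genes differed between the lines in both directions, more often with the lower level in H1650. H1650 was lower than PC9 in 25 of the 53 and higher in 11, against 33.8% and 35.8% of all tested genes, so differing at all was not particular to the set. The median was -0.18, against 0.04 over all tested genes. CDT1 (-1.25 ± 0.09), MCM7 (-1.22 ± 0.07) and POLE3 (-1.05 ± 0.08) were the genes more than 2-fold lower in H1650, and RECQL4 (1.38 ± 0.10), a helicase of the RecQ family that acts in firing, was the gene most above PC9. Each of the 6 clamp and loader genes had a lower value in H1650 and 4 passed. MCM10, which changed most with treatment, did not differ detectably at T0 (0.01 ± 0.09, 95% interval -0.18 to 0.19). Among the genes given in full, 3 calls at T0 were lost when 1 library was left out. CDC6 (0.27 ± 0.09) was lost without H1650 T0 replicate 2 (adjusted p = 0.0716), TICRR (0.32 ± 0.09) without H1650 T0 replicate 1 (0.0548), and POLE2 (-0.39 ± 0.15) without PC9 T0 replicate 2 or H1650 T0 replicate 1 (0.14 and 0.0975).

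Genes of the same pathway outside the set, listed by role as chromatin assembly, clamp unloading, checkpoint and further fork factors, moved in the same direction with smaller medians. Of 45 listed, 44 were in the table and all of these were tested. In PC9, 36 were lower and 3 higher with erlotinib (median -1.46), against 29.1% and 32.7% of all tested genes and their median of 0.07. With osimertinib 37 were lower and 1 higher (median -1.71), against 28.7% and 32.7% and a median of 0.06. The 37 include RNASEH2A (-3.28 ± 1.32, adjusted p = 0.0332), whose level was near the limit of 3 reads. It read 0.101 and 0.494 CPM at PC9 T0 and 0 and 0.0561 with osimertinib. In H1650, 26 were lower and 3 higher with erlotinib (median -0.32), against 18.5% and 18.0% and a median of 0.01, and 30 and 1 with osimertinib (median -0.45), against 17.9% and 17.8% and a median of 0. DTL, which directs the destruction of CDT1 during S phase, read 51.02 and 56.8 CPM in PC9 T0, 1.93 and 1.48 with erlotinib and 3.84 and 2.69 with osimertinib, changes of -4.99 ± 0.15 and -4.02 ± 0.14. In H1650 DTL changed by -0.31 ± 0.10 and -0.43 ± 0.10. DSCC1, a subunit of an alternative clamp loader, changed by -4.04 ± 0.14 and -3.96 ± 0.15 in PC9 and by -0.62 ± 0.10 and -1.09 ± 0.10 in H1650. The smallest subunit of polymerase delta, POLD4, went the other way in PC9, from 7.11 and 5.18 CPM at T0 to 15.5 and 14.3 with erlotinib and 16.2 and 15.6 with osimertinib. It rose by 1.28 ± 0.16 (adjusted p = 6.63e-08) and 1.37 ± 0.16 (adjusted p = 2.00e-08) there, and did not pass in H1650 (0.02 ± 0.16 and 0.21 ± 0.16). CHTF8, the other gene with the highest mean change, was near 1 CPM in all libraries and did not pass in any drug comparison.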

How the data were processed

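RNA-seq counts of 12 libraries in 6 groups were used. The authors ran the DolphinNext pipeline and deposited unnormalized whole-number counts per gene from featureCounts. The submitters' processing notes name GRCh38 and DESeq2. The aligner, annotation and strandedness are not given in the sources used here. Reads of overlapping genes, which 24 of the 53 genes have in GENCODE 29, can therefore be shared.

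The counts were tested with edgeR 4.0.16 in R 4.3.3. After filtering by group, 19108 genes were kept, 41483 were not, and TMM factors were 0.941 to 1.08. A quasi-likelihood model with 1 term per group was fitted to all libraries, and genes were called at a p under 0.05 after Benjamini-Hochberg adjustment over all tested genes. Errors are standard errors of log2 fold changes, and intervals are 95% intervals from the fit, not adjusted for the number of tests. In simulated data for erlotinib in PC9, 199 of 200 genes changed 2-fold were recovered among 18119, with 13 false calls. The other genes were simulated without change, so scaling under a wide change and the detection of changes below 2-fold were not tested.

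The 53 genes, their subgroups and the list of 45 further genes were chosen with earlier results of these data known. Genes given in full were, in each subgroup, those with the lowest and the highest mean change over the 4 drug comparisons, then MCM2, PCNA, CDT1 and GMNN, the 3 lowest and 3 highest differences between lines, the 2 largest differences between drugs in each line, and any gene called in opposite directions. Others are named for a list or a count and were chosen after their values were seen. Alternatives were upper quartile or RLE scaling, DESeq2 1.42.0, other count filters, 1 fit per line, an adjusted p under 0.01, the replicate number as a block, and leaving out each library. Promoter windows are from RefSeq. Protein sequences, the genome-wide screen and the cell death measurements were not used here.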

Additional observations from a re-analysis of the deposited data

Results flagged for a closer look

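The lines differed in their response to the same drug, by the test of that difference, in 52 of the 53 genes with erlotinib and in 53 with osimertinib. With erlotinib the difference (log2 change in H1650 minus that in PC9) was 5.12 for MCM10, 4.37 for CLSPN and 4.25 for CDC6 at the upper end and 0.35 for ORC3, 0.37 for POLD2 and 0.37 for RPA1 at the lower end. The ORC3 call was lost with DESeq2, with RLE or upper quartile scaling and with a filter of at least 1 count. With osimertinib it was 3.72 for ORC1, 3.69 for MCM10 and 3.62 for POLE2, and 0.43 for RPA1, 0.53 for RFC1 and 0.55 for ORC2. ORC4, called in opposite directions in the 2 lines, differed by 0.68 with erlotinib and 0.67 with osimertinib. Its calls in PC9 were lost with upper quartile scaling. The difference between osimertinib and erlotinib itself differed between the lines, lower in H1650, for 8 genes in a comparison added after the data were seen: by -1.42 for MCM10, -1.13 for CLSPN, -0.86 for CDC6, -0.64 for MCM5, -0.58 for GINS1, -0.53 for FEN1, -0.48 for MCM3 and -0.37 for MCM4.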

How the results depend on the processing

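Under the alternatives that kept all libraries, the counts of genes lower in PC9 stayed at 51 to 53 with erlotinib and 52 to 53 with osimertinib, those in H1650 at 30 to 39 and 40 to 45, and those with a higher difference between lines at 50 to 53 and 53. Leaving out 1 library gave 29 to 39 lower genes for erlotinib in H1650. The 8 genes lower with osimertinib than with erlotinib in H1650 became 5 with DESeq2, 0 at an adjusted p under 0.01 and 0 to 9 when 1 library was left out, and the cause was not tested. In PC9 the 1 gene lower was 0 to 1 when 1 library was left out. The 8 genes of the added drug-to-drug comparison became 5 at an adjusted p under 0.01 and 5 to 7 when 1 library was left out. For the genes given in full, changes from T0 and differences between lines in that change turned sign only without H1650 T0 replicate 1. When 1 library was left out, PCNA with erlotinib in H1650 ranged from -0.0605 to 0.00053 and ORC2 from -0.0241 to 0.211. In the other comparisons the sign was followed only for genes already called, so changes near 0 there were not checked.

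The replicate numbers are shared by the groups, but nothing says that they pair the libraries. Deviations of same-numbered libraries correlated between groups at 0.00206 to 0.448 over 10294 genes, in 15 pairs of groups. With the replicate number as a block the counts of lower genes in PC9 were 53 for each drug, those in H1650 were 39 and 45, and osimertinib against erlotinib gave 17 lower and 1 higher in H1650 and 1 lower and 10 higher in PC9. The added drug-to-drug comparison gave 11 lower genes under the block. Of the genes given in full, PCNA with osimertinib in H1650 passed (-0.17, adjusted p = 0.0273). No other call of theirs changed among the changes from T0 and the differences between lines in that change. In the other comparisons only genes already called were followed. None of those calls was lost, and new calls of single genes were not looked for. With 2 libraries a group, the error of 1 group's level is itself poorly known.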
